A study of Mus musculus with 18 samples.

Results

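Genes that TRP53 switches on to drive apoptosis were followed in primary mouse embryonic fibroblasts (MEFs) carrying 2, 1 or 0 functional *Trp53* alleles. The 9 members, *Bbc3*, *Pmaip1*, *Bax*, *Apaf1*, *Pidd1*, *Fas*, *Tnfrsf10b*, *Perp* and *Aen*, were chosen by name as known targets, with earlier results of these data known. They were found through their Ensembl identifiers among the 51912 genes of the count table. All 9 passed the filter on low counts, which left 15710 genes for testing. The 18 RNA-seq libraries fell into 6 genotypes of 3, namely *Pole4*+/+ and *Pole4*-/- MEFs that were each *Trp53*+/+, *Trp53*+/- or *Trp53*-/-. Every library came from passage 1 cells grown in 5% oxygen and 15% serum, from mid-gestation embryos of C57BL/6 mice whose head, heart and liver had been taken off, and both null alleles were germline, so that all cells of an embryo carry them. *Pole4* encodes a small accessory subunit of DNA polymerase epsilon. Neither allele was combined with any drug or irradiation, so the levels are those of unchallenged cultures. The labels do not say whether the 3 libraries of a genotype came from separate embryos, and p-values therefore measure only the spread between these libraries.

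TRP53 (p53) is a transcription factor that is held at a low level by MDM2 and accumulates after DNA damage and other stress. Among its target genes are several whose products act along the mitochondrial route to apoptosis, in which BH3-only proteins release BAX and BAK to open the outer mitochondrial membrane, cytochrome c leaves, and APAF1 assembles the apoptosome on which caspase-9 is activated. Other targets encode death receptors at the cell surface, which activate caspase-8 when bound by their ligands. MEFs are known to express many of these genes at rest and to die or arrest in a TRP53-dependent way when damaged.

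TRP53 binds a response element made of a pair of adjoining 10-base motifs, and promoter sequence is shown for the members that hold such letters near their start. RefSeq promoter windows of 300 bases (250 before the transcription start and the rest after it, build GRCm38.p6) were on hand for 6 of the 9 members, as 9 windows. The p53 motif was searched on both strands, as an exact single motif of 10 bases or as a pair of motifs without a spacer that held the fixed C and G of each and at most 3 mismatches over 20 bases. Over all 32851 promoter windows, 8.36% held the exact single motif and 1.38% the pair. Among the members, a pair was found for *Bbc3* and *Aen* and an exact single motif for *Bax* and *Aen*. The first start of *Bbc3* had its pair 97 to 78 bases before the start, with 3 mismatches. In *Bax* the single motif lay 201 to 192 bases before the start. The 250 bases before the start are printed for these 2 genes, 5′ to 3′ on the gene's strand, with the matched letters in capitals (*Bbc3*, plus strand, chr7:16309333-16309582; *Bax*, minus strand, chr7:45466899-45467148).
Bbc3: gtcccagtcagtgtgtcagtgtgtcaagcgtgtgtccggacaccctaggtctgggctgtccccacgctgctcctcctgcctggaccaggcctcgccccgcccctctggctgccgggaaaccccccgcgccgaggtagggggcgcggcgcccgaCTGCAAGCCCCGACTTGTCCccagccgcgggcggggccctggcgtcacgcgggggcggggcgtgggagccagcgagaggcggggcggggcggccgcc
Bax: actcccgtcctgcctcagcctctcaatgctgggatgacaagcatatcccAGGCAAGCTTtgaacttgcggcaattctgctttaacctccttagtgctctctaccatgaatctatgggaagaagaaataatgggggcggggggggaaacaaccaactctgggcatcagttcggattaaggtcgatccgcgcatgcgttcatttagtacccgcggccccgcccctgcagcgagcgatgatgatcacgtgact
In *Aen* the pair of motifs, with 3 mismatches, lay 10 to 29 bases after the first RefSeq start and 121 to 102 bases before the second. It overlapped an exon of 4 of the annotated transcripts, and only the 20 matched bases are printed (plus strand, chr7:78895937-78895956).
Aen: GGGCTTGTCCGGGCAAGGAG
The *Bbc3* stretch is intronic to a longer *Bbc3* transcript that starts upstream, and the *Bax* stretch is intronic to *Gm45808*, an overlapping gene; neither touched an annotated exon. The other starts of *Bbc3* and the windows of *Pidd1*, *Apaf1* and *Fas* did not hold these letters, which says only that they are not in these windows. A match is a description of letters and was not tested as a binding site.

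The labels were checked against the deleted genes. *Trp53* ran from 64.2 to 96.1 CPM (counts scaled to a library size of 1e+06, with TMM factors between libraries) in the 6 *Trp53*+/+ libraries, from 48.4 to 59.6 in the 6 *Trp53*+/- libraries and from 8.65 to 12.1 in the 6 *Trp53*-/- libraries, so the 3 ranges did not overlap and some *Trp53* reads remained in the null cells. *Pole4* ran from 14.2 to 26.4 CPM in the 9 *Pole4*+/+ libraries and from 9.26 to 11.99 in the 9 *Pole4*-/- libraries. As a check on TRP53 activity, *Cdkn1a*, the cell cycle inhibitor that TRP53 induces, ran from 232 to 363 CPM with 2 *Trp53* alleles, from 149 to 305 with 1 and from 5.17 to 12.03 with none, and *Mdm2*, the gene of its own inhibitor, from 123 to 159, from 80.3 to 124 and from 36.3 to 48.1. Library totals lay between 9535971 and 35319918 counts with a median of 22781543, and ribosomal RNA took 0.968% to 42.5% of a library. Each of the 9 fibroblast markers was found in the MEFs, with a summed level of 9862.5 to 20351 CPM, whereas 4 of 5 erythroid markers stayed at 3 counts or fewer in all libraries. By *Xist* and the Y-linked genes, 7 of the 18 libraries were male, including all 3 *Pole4*+/+ *Trp53*+/- and none of the *Pole4*+/+ *Trp53*+/+ or *Pole4*+/+ *Trp53*-/- libraries, so that sex and the loss of 1 *Trp53* allele cannot be told apart in the *Pole4*+/+ background. In bulk RNA, fewer cells of a kind and less RNA per cell cannot be told apart.

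The first question was whether the apoptosis targets need TRP53 for their level in unstressed cells. All 9 genes were lower in *Pole4*-/- *Trp53*-/- than in *Pole4*-/- *Trp53*+/+ MEFs, by 0.68 (*Apaf1*) to 3.81 (*Perp*) on the log2 scale, and all 9 passed the test (edgeR's quasi-likelihood test, Benjamini-Hochberg adjusted p under 0.05 over all genes tested). In that comparison 20.8% of all genes were called lower. In *Pole4*+/+ MEFs all 9 were again lower in *Trp53*-/- cells, 8 of them were called, and *Fas*, at a log2 fold change of -0.97, missed the threshold (adjusted p = 0.0591), against 2.37% of all genes called lower. With both backgrounds averaged, 9 of 9 were called, against 17.1% of all genes. Since the members were chosen with earlier results of these data known, the shares of all genes describe this contrast and do not test it. The median change of the members was -1.72 in *Pole4*-/- and -1.23 in *Pole4*+/+ cells, where the medians of all genes were -0.02 and 0.03. The groups of 3 did not overlap for any of the 9 genes in either background, which gives an exact two-sided permutation p of 0.1 for each gene, the smallest that 3 against 3 allow; 28.5% of all genes were likewise lower without overlap in *Pole4*-/- and 8.31% in *Pole4*+/+ cells. The remaining level in the null cells nevertheless ranged widely between the genes, from 7.19% of the *Trp53*+/+ mean for *Perp* in *Pole4*-/- cells to 75.4% for *Apaf1* in *Pole4*+/+ cells.

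**Figure D1:**
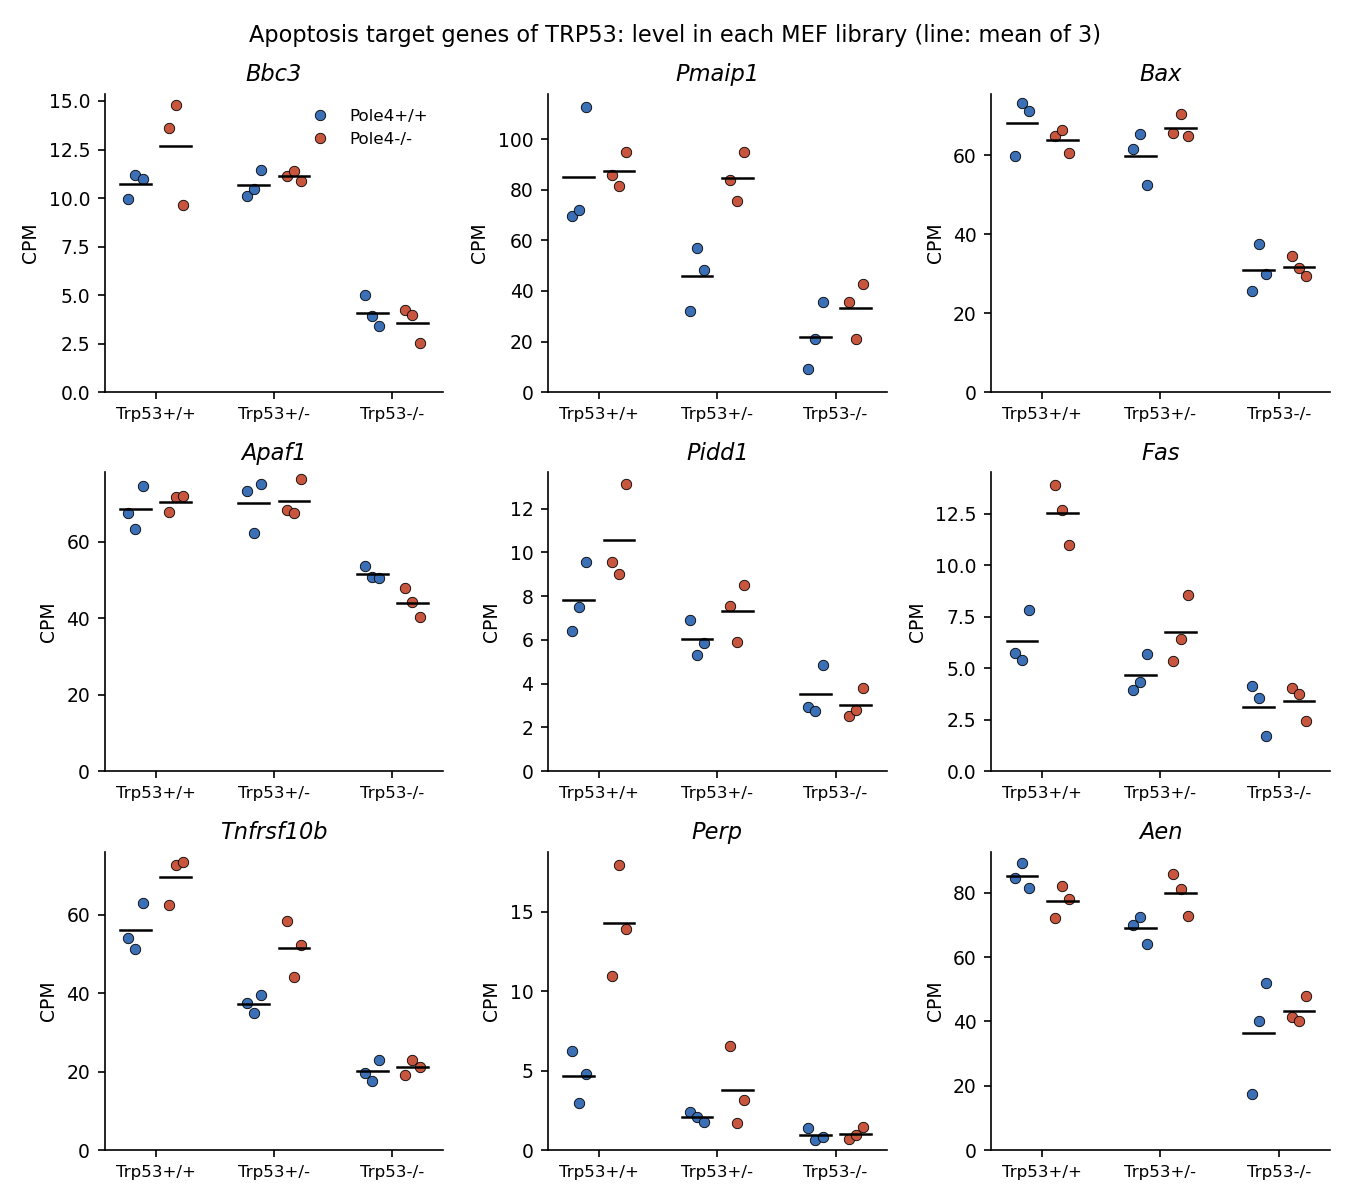
Level of each of the 9 apoptosis targets in the 18 libraries, in TMM-scaled CPM on axes that start at 0, with *Pole4*+/+ libraries in blue, *Pole4*-/- libraries in red and a line at the mean of 3. In every panel and in both backgrounds the 3 *Trp53*-/- points lie below the 3 *Trp53*+/+ points, and the *Trp53*+/- points lie near the *Trp53*+/+ points for *Bbc3*, *Bax* and *Apaf1* and between the other groups for *Tnfrsf10b* and *Perp*.

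The count in *Pole4*+/+ cells depended on the fit: DESeq2 and voom called 9 members, a fit with only the 6 libraries compared called 3 (*Bax*, *Bbc3* and *Tnfrsf10b*), and leaving out *Pole4*+/+ *Trp53*+/+ replicate 3 or *Pole4*+/+ *Trp53*-/- replicate 2 ended the calls of *Apaf1* and *Pidd1*, leaving 6. Leaving out *Pole4*+/+ *Trp53*-/- replicate 1 added *Fas* and gave 9. Markers of cell types were read beside these changes in both backgrounds. The summed fibroblast markers lay at 9862.5 to 12295 CPM in *Pole4*-/- *Trp53*-/- against 16327 to 20351 in *Pole4*-/- *Trp53*+/+, with 4 of 9 called lower and 1 higher, and overlapped in *Pole4*+/+ cells, where 0 were called lower and 1 higher. The 6 skeletal muscle markers summed to 53.4 to 68.9 CPM against 140.35 to 149 in *Pole4*-/- and to 43.8 to 51.3 against 114 to 152 in *Pole4*+/+ cells. *Acta1* and *Des* were the 2 of 6 called lower in each background, while the median log2 fold change of the 6 markers was 0.30 and 1.63. The 5 neuron markers summed to 123 to 145 against 76.8 to 96.1 CPM in *Pole4*-/-, with 2 of 3 tested called higher, and to 99.8 to 137 against 66.1 to 85.9 in *Pole4*+/+ cells, with 0 called higher by edgeR. Macrophage and endothelial markers (8 and 6) overlapped between *Trp53*-/- and *Trp53*+/+ in both backgrounds, at 6.49 to 34.3 against 9.81 to 24.8 CPM and at 3.77 to 6.17 against 2.73 to 5.09 in *Pole4*-/- cells. The part of these markers in the members' change was not tested.

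The BH3-only genes *Bbc3* and *Pmaip1* encode PUMA and NOXA, which bind and neutralise the protective BCL2 proteins. *Bbc3* (ENSMUSG00000002083, chromosome 7, 16308393 to 16318205, plus strand) was found at 9.98, 11.2 and 11.0 CPM in *Pole4*+/+ *Trp53*+/+, at 10.1, 10.4 and 11.4 in *Pole4*+/+ *Trp53*+/- and at 4.99, 3.92 and 3.40 in *Pole4*+/+ *Trp53*-/- libraries. The *Pole4*-/- values were 13.6, 14.8 and 9.64 with both *Trp53* alleles, 11.1, 11.4 and 10.9 with 1, and 4.22, 3.98 and 2.52 with none. Thus the null libraries stood apart from all others, while the heterozygous values lay within or close to the *Trp53*+/+ range. Loss of both alleles changed *Bbc3* by -1.83 ± 0.19 (log2 fold change ± SE, adjusted p = 8.85e-06) in *Pole4*-/- and by -1.36 ± 0.19 (adjusted p = 0.000542) in *Pole4*+/+ cells, as edgeR estimated it.

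*Pmaip1* (ENSMUSG00000024521, on chromosome 18) spread widely within its groups. Its *Pole4*+/+ levels were 69.8, 72.0 and 113 CPM in *Trp53*+/+, 32.1, 57.0 and 48.3 in *Trp53*+/- and 9.35, 21.0 and 35.5 in *Trp53*-/- libraries. The *Pole4*-/- libraries held 85.7, 81.5 and 95.03 CPM with 2 alleles, 84.1, 75.6 and 94.9 with 1 and 35.8, 21.0 and 43.0 with none. In the *Pole4*+/+ background the heterozygous libraries lay below every *Trp53*+/+ library, whereas in the *Pole4*-/- background the heterozygous and *Trp53*+/+ ranges overlapped nearly in full. The log2 fold change of *Trp53*-/- cells was -1.39 ± 0.38 (edgeR, adjusted p = 0.0089) in *Pole4*-/- and -1.98 ± 0.39 (adjusted p = 0.0093) in *Pole4*+/+ MEFs, making *Pmaip1* one of 3 members, with *Bax* and *Aen*, whose estimate was further from 0 in *Pole4*+/+ cells.

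*Bax*, whose product permeabilises the outer mitochondrial membrane, and *Apaf1*, the scaffold of the apoptosome, both had *Trp53*+/- libraries that overlapped the *Trp53*+/+ libraries in each background. The estimate for 1 lost allele in *Pole4*+/+ cells was -0.19 for *Bax* (95% interval -0.45 to 0.08) and 0.03 for *Apaf1* (-0.16 to 0.23). *Bax* (ENSMUSG00000003873, chromosome 7, 45461697 to 45466898, minus strand) had the highest level per length of the 9 genes, 43.2 CPM per kilobase of merged exons in *Pole4*+/+ *Trp53*+/+ cells, ahead of *Pmaip1* at 31.1 and *Aen* at 14.7. It shares 192 exonic bases with *Gm45808*, which had a mean of 0.458 counts a library against 1188 for *Bax*. Library values of *Bax* in *Pole4*+/+ cells were 59.8, 73.3 and 71.3 CPM in *Trp53*+/+, 61.5, 65.4 and 52.5 in *Trp53*+/- and 25.5, 37.4 and 29.9 in *Trp53*-/- MEFs. The same order in *Pole4*-/- cells gave 65.0, 66.5 and 60.5, then 65.6, 70.6 and 64.9, and then 34.5, 31.4 and 29.4 CPM. Only the null libraries separated, by -1.01 ± 0.13 on the log2 scale in *Pole4*-/- (adjusted p = 2.95e-05) and by -1.14 ± 0.13 in *Pole4*+/+ cells (edgeR, adjusted p = 6.84e-05), with 49.6% and 45.5% of the *Trp53*+/+ mean remaining.

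*Apaf1* (ENSMUSG00000019979, chromosome 10, 90989311 to 91082770, minus strand) changed least. Its *Pole4*+/+ libraries held 67.5, 63.5 and 74.7 CPM in *Trp53*+/+, 73.2, 62.2 and 75.1 in *Trp53*+/- and 53.8, 50.8 and 50.4 in *Trp53*-/- MEFs. *Pole4*-/- libraries held 67.8, 71.9 and 72.0, then 68.4, 67.6 and 76.3, and then 47.9, 44.1 and 40.3 CPM. Small as the difference was, the null libraries lay below all others in both backgrounds, at 62.5% and 75.4% of the *Trp53*+/+ mean in *Pole4*-/- and *Pole4*+/+ cells. The estimates were -0.68 ± 0.09 (edgeR, adjusted p = 5.51e-05) and -0.41 ± 0.09 (adjusted p = 0.0167).

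*Pidd1* encodes the death domain protein that brings caspase-2 into the PIDDosome. It (ENSMUSG00000025507, chromosome 7, 141438113 to 141444025, minus strand) had the lowest level per length in *Pole4*+/+ *Trp53*+/+ cells, 1.73 CPM per kilobase. Its levels were 6.41, 7.50 and 9.55 CPM in *Pole4*+/+ *Trp53*+/+, 6.92, 5.32 and 5.85 in *Pole4*+/+ *Trp53*+/- and 2.93, 2.75 and 4.85 in *Pole4*+/+ *Trp53*-/- libraries. In *Pole4*-/- cells they were 9.55, 9.01 and 13.1 with both alleles, 7.56, 5.89 and 8.50 with 1 and 2.54, 2.77 and 3.78 with none, and here the 3 groups did not overlap one another. The change in the null cells was -1.80 ± 0.25 in *Pole4*-/- (edgeR, adjusted p = 6.65e-05) and -1.18 ± 0.24 in *Pole4*+/+ MEFs (adjusted p = 0.0102).

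The death receptor genes *Fas* and *Tnfrsf10b*, the second of which encodes the mouse TRAIL receptor, had mean levels with 1 *Trp53* allele that lay between those with 2 and with none. For *Fas* (ENSMUSG00000024778, chromosome 19, 34290666 to 34327772, plus strand) the *Pole4*+/+ values were 5.74, 5.38 and 7.83 CPM in *Trp53*+/+, 3.95, 4.33 and 5.68 in *Trp53*+/- and 4.13, 3.53 and 1.70 in *Trp53*-/- libraries. *Pole4*-/- values were 13.9, 12.7 and 11.0 with 2 alleles, 5.33, 6.41 and 8.54 with 1 and 4.04, 3.77 and 2.45 with none. The *Pole4*-/- *Trp53*+/+ libraries were thus the highest of all 18, and the null libraries of both backgrounds overlapped. *Fas* changed by -1.87 ± 0.28 in *Pole4*-/- (edgeR, adjusted p = 0.000138) and by -0.97 ± 0.28 in *Pole4*+/+ cells, where it was not called (adjusted p = 0.0591); over the alternatives other than leaving out a library that p ran from 0.0163 to 0.392.

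*Tnfrsf10b* (ENSMUSG00000022074, chromosome 14, 69767472 to 69784411, plus strand) had narrow groups. It stood at 54.2, 51.3 and 63.1 CPM in *Pole4*+/+ *Trp53*+/+, at 37.6, 34.9 and 39.6 in *Pole4*+/+ *Trp53*+/- and at 19.6, 17.7 and 23.0 in *Pole4*+/+ *Trp53*-/- libraries. For *Pole4*-/- cells the values were 62.5, 72.7 and 73.3, then 58.4, 44.1 and 52.4, and then 19.1, 23.1 and 21.1 CPM. *Tnfrsf10b* and *Perp* were the only members whose 3 *Trp53* genotypes were separate from one another in both backgrounds. Its change in null cells was -1.72 ± 0.13 in *Pole4*-/- (edgeR, adjusted p = 2.94e-07) and -1.49 ± 0.13 in *Pole4*+/+ MEFs (adjusted p = 2.72e-06).

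*Perp* encodes a tetraspan membrane protein that acts downstream of TRP53 in apoptosis and is also a part of desmosomes in epithelia. It (ENSMUSG00000019851, chromosome 10, 18845020 to 18857073, plus strand) had the largest estimated change of the 9 genes in both backgrounds. In *Pole4*+/+ cells *Pmaip1* was close, at -1.98 ± 0.39. With 1 library left out, *Perp* ran there from -2.74 to -1.96 and *Pmaip1* from -2.51 to -1.63, so their order is not settled. Its *Pole4*+/+ levels were 6.26, 3.00 and 4.81 CPM in *Trp53*+/+, 2.41, 2.06 and 1.77 in *Trp53*+/- and 1.42, 0.66 and 0.808 in *Trp53*-/- libraries. In *Pole4*-/- cells it reached 11.0, 17.9 and 13.9 CPM with both alleles, against 6.54, 1.73 and 3.18 with 1 and 0.68, 0.942 and 1.46 with none. The groups were separate at every step in both backgrounds, although the null values rest on 10 to 51 counts a library. *Perp* changed by -3.81 ± 0.47 in *Pole4*-/- (edgeR, adjusted p = 2.68e-05) and by -2.24 ± 0.45 in *Pole4*+/+ *Trp53*-/- cells (adjusted p = 0.0093). Because *Perp* is abundant in epithelia, 10 epithelial markers were read beside it. Of these, 3 passed the filter on low counts, *Krt5* stayed at 3 counts or fewer throughout, *Epcam* did not exceed 0.24 CPM and *Cdh1* did not exceed 0.33. The summed markers lay at 8.85 to 28.1 CPM in *Pole4*-/- *Trp53*-/- and at 6.44 to 11.7 in *Pole4*-/- *Trp53*+/+ libraries, and the 3 tested markers did not move alike. *Krt8* (4.59 ± 0.92) and *Krt18* (2.04 ± 0.63) were called higher in the *Pole4*-/- null cells, the opposite direction to *Perp*. In *Pole4*+/+ null cells 0 of the 3 tested markers were called, with a median log2 fold change of 0.59. *Dsp*, a desmosome gene as *Perp* is, had estimates of the same sign as *Perp* without a call, at -0.40 ± 0.33 in *Pole4*-/- and -0.66 ± 0.34 in *Pole4*+/+ null cells. *Dsg2*, another desmosome gene, was too low to be tested and lay the other way in *Pole4*-/- cells, at 0 CPM in the *Trp53*+/+ and 0.499 to 0.928 in the *Trp53*-/- libraries. The level of *Dsp* was 4.19 to 8.85 CPM in *Pole4*-/- *Trp53*+/+, 2.48 to 4.45 in *Pole4*+/+ *Trp53*+/+ and 1.73 to 2.01 in *Pole4*+/+ *Trp53*+/- libraries. The part of epithelial cells in the values of *Perp* was not tested.

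*Aen* encodes a nuclease that TRP53 induces and that takes part in DNA degradation during apoptosis. It (ENSMUSG00000030609, chromosome 7, 78895854 to 78911209, plus strand) stood at 84.6, 89.2 and 81.5 CPM in *Pole4*+/+ *Trp53*+/+, at 70.1, 72.4 and 64.1 in *Pole4*+/+ *Trp53*+/- and at 17.4, 40.2 and 52.1 in *Pole4*+/+ *Trp53*-/- libraries. *Pole4*-/- libraries held 72.0, 82.1 and 78.2, then 85.9, 81.1 and 72.7, and then 41.5, 40.1 and 47.8 CPM. The null libraries were the lowest in both backgrounds, and *Pole4*+/+ *Trp53*-/- replicate 1 lay well below the other null libraries. *Aen* changed by -0.84 ± 0.25 in *Pole4*-/- (edgeR, adjusted p = 0.0130) and by -1.23 ± 0.25 in *Pole4*+/+ cells (adjusted p = 0.0101).

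The next comparison addressed gene dosage, in which cells with 1 functional *Trp53* allele were set against cells with 2. *Perp*, *Fas* and *Tnfrsf10b* were called lower in *Trp53*+/- cells with both backgrounds averaged, by -1.52 ± 0.30 (edgeR, adjusted p = 0.0073), -0.67 ± 0.19 (adjusted p = 0.0479) and -0.51 ± 0.09 (adjusted p = 0.0032). That is 3 of 9 members, where 3.15% of all genes were called lower. At the other end, *Bax*, *Bbc3* and *Apaf1* had estimates of -0.06, -0.10 and 0.02, with 95% intervals from -0.25 to 0.13, from -0.37 to 0.17 and from -0.12 to 0.16. *Pidd1* (-0.44 ± 0.17, adjusted p = 0.127), *Pmaip1* (-0.47 ± 0.26, adjusted p = 0.309) and *Aen* (-0.13 ± 0.17, adjusted p = 0.709) were not called by edgeR. The median of the members was -0.44 and that of all genes 0.00088. *Fas* held its call without *Pole4*-/- *Trp53*+/- replicate 3, *Pole4*-/- *Trp53*-/- replicate 3 or *Pole4*+/+ *Trp53*-/- replicate 1 or 3 and lost it in the other 14 fits that left out 1 library, whereas *Perp* and *Tnfrsf10b* were called in all 18. Of the 8 other alternatives, *Fas* was called in 4, *Tnfrsf10b* in 7 and *Perp* in all 8.

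**Figure D2:**
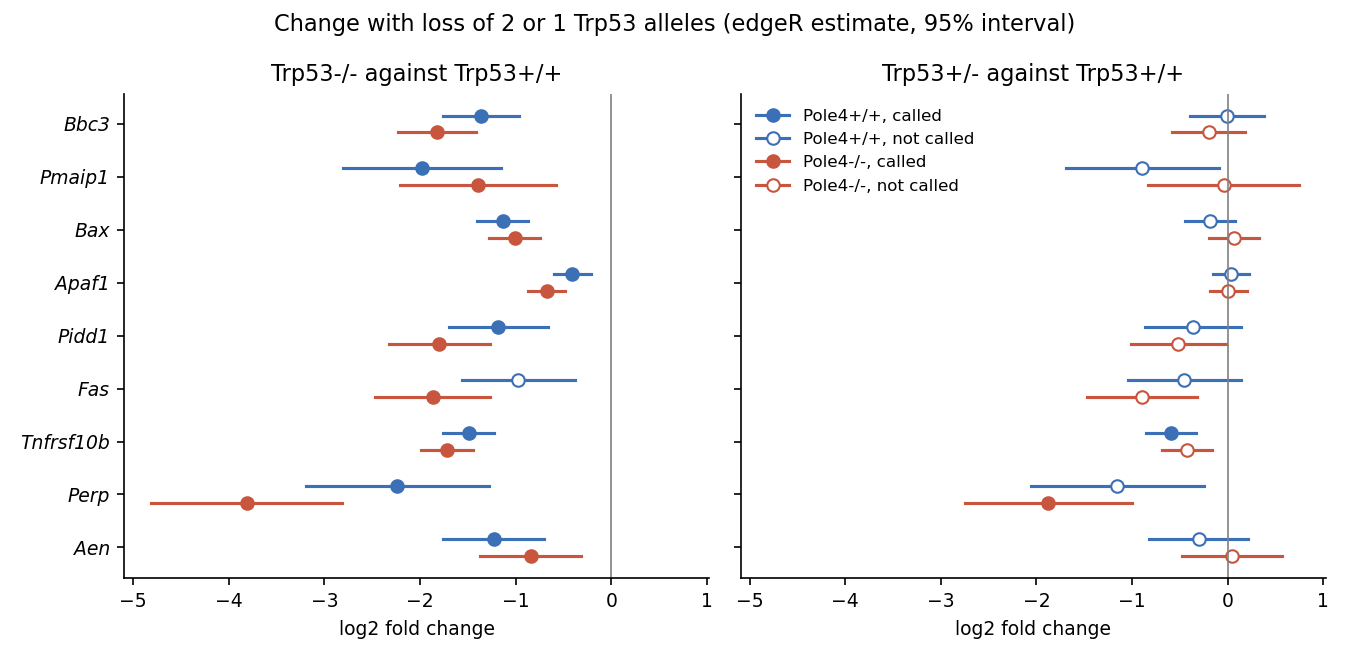
Log2 fold changes of the 9 genes in *Trp53*-/- (left) and *Trp53*+/- (right) against *Trp53*+/+ MEFs, from edgeR, with 95% intervals that are not adjusted for the number of genes tested; filled points passed the adjusted threshold. All 18 estimates on the left are below 0 and 17 are filled, whereas on the right only *Tnfrsf10b* in *Pole4*+/+ and *Perp* in *Pole4*-/- are filled and *Bbc3*, *Bax* and *Apaf1* straddle 0.

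Within a single background the loss of 1 allele gave fewer calls. In *Pole4*-/- cells 1 of 9 members was called lower, *Perp* at -1.88 ± 0.41 (edgeR, adjusted p = 0.0254), against 2.16% of all genes, and *Fas* (-0.90 ± 0.27, adjusted p = 0.0632), *Tnfrsf10b* (-0.43 ± 0.12, adjusted p = 0.0546) and *Pidd1* (-0.52 ± 0.23, adjusted p = 0.178) had unadjusted p-values under 0.05. In *Pole4*+/+ cells 1 of 9 was called, *Tnfrsf10b* at -0.59 ± 0.12 (adjusted p = 0.0332), against 0.407% of all genes, and *Perp* (-1.16 ± 0.43, adjusted p = 0.292) and *Pmaip1* (-0.89 ± 0.37, adjusted p = 0.395) had unadjusted p-values under 0.05. Between the same *Pole4*+/+ genotypes the summed markers also separated, at 59.2 to 80.7 CPM in *Trp53*+/- against 114 to 152 in *Trp53*+/+ for skeletal muscle, 95.8 to 124.6 against 66.1 to 85.9 for neurons and 15507 to 20172 against 11757 to 15423 for fibroblasts, and their part was not tested. Counted by overlap, 4 of 9 members were lower without overlap in *Pole4*-/- (*Perp*, *Fas*, *Tnfrsf10b* and *Pidd1*), where 18.9% of all genes were, and 4 of 9 in *Pole4*+/+ cells (*Perp*, *Tnfrsf10b*, *Pmaip1* and *Aen*), where 10.1% were. These calls were close to the threshold. With the level of *Xist* as a covariate for sex in edgeR, *Tnfrsf10b* stood at -0.84 (adjusted p = 0.0349) in *Pole4*+/+ cells, and *Perp* stood at -1.73 (adjusted p = 0.0649) in *Pole4*-/- cells, which left 0 members called there. In *Pole4*+/+ cells all 3 *Trp53*+/- and 0 of 3 *Trp53*+/+ libraries were male. The covariate therefore cannot separate sex from the loss of 1 allele in that background, and the call kept there says nothing about sex. *Tnfrsf10b* lost its call in *Pole4*+/+ cells when any 1 of the 6 libraries compared was left out, giving 0 members, and *Perp* lost its call in *Pole4*-/- cells without *Trp53*+/- replicate 2 or 3 or *Trp53*+/+ replicate 2 or 3, again giving 0. Without *Pole4*+/+ *Trp53*-/- replicate 1 or 3, which belong to neither genotype compared but share the fit, 3 members were called in *Pole4*-/- cells (*Perp*, *Fas* and *Tnfrsf10b*).

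Set against the full loss, the share of the *Trp53*+/+ level that 1 allele retained differed from gene to gene. In *Pole4*-/- cells *Perp* stood at 26.7% of its *Trp53*+/+ mean with 1 allele and at 7.19% with none, and *Fas* at 54.0% and 27.3%. *Tnfrsf10b* stood at 74.3% and 30.4%, and *Pidd1* at 69.3% and 28.7%. For these genes the level with 1 allele lay between the other values. *Bax* (105% and 49.6%), *Apaf1* (100.3% and 62.5%), *Aen* (103% and 55.7%), *Pmaip1* (97.1% and 38.1%) and *Bbc3* (87.9% and 28.2%) instead kept most or all of their level until the last allele was lost. In *Pole4*+/+ cells *Perp* (44.4% and 20.6%), *Tnfrsf10b* (66.4% and 35.7%), *Fas* (73.6% and 49.4%) and *Pidd1* (77.1% and 44.9%) again lay in between, and so did *Pmaip1*, at 54.0% and 25.8%. *Bbc3* (99.7% and 38.3%) and *Apaf1* (102% and 75.4%) had means with 1 allele close to those with 2. *Bax* was at 87.8% and 45.5% and *Aen* at 80.9% and 43.0% with 1 allele and with none, and all 3 heterozygous *Aen* libraries lay below every *Trp53*+/+ library. Whether 1 gene differed from another in this respect was not tested.

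**Figure D3:**
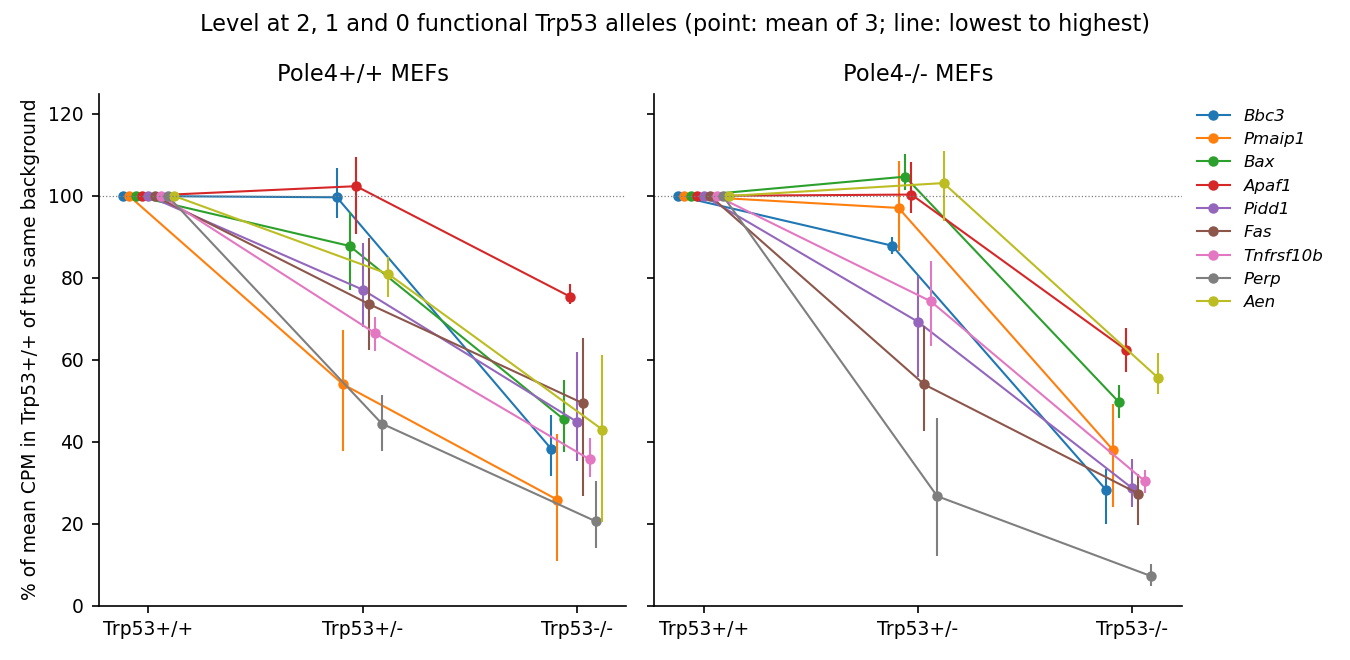
Mean level of each gene at 2, 1 and 0 functional *Trp53* alleles, as % of the mean CPM in *Trp53*+/+ cells of the same background, with a line from the lowest to the highest of the 3 libraries. *Perp* has the lowest points with 0 alleles in both panels (20.6% and 7.19%), and *Apaf1* the highest (75.4% and 62.5%).

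Losing the second allele lowered all 9 members in *Pole4*-/- cells. *Trp53*-/- against *Trp53*+/- MEFs gave 9 of 9 called lower, where 5.91% of all genes were, with log2 fold changes from -0.68 (*Apaf1*) to -1.94 (*Perp*). These comparisons share their *Trp53*+/- or *Trp53*-/- libraries with those above. Other measures also separated the *Pole4*-/- *Trp53*-/- from the *Pole4*-/- *Trp53*+/- libraries: ribosomal RNA took 24.7% to 30.0% against 3.75% to 15.5%, fibroblast markers summed to 9862.5 to 12295 against 15021 to 18537 CPM (2 of 9 called lower) and skeletal muscle markers to 53.4 to 68.9 against 125.2 to 203 (2 of 6 called lower). The median log2 fold change of the 6 muscle markers was 0.90, opposite in direction to their sum. The part of these measures was not tested. *Bbc3* changed by -1.63 ± 0.19, close to its full effect, and *Perp* by -1.94 ± 0.46. In *Pole4*+/+ cells 4 of 9 were called lower, where 0.509% of all genes were: *Bbc3* (-1.36 ± 0.19), *Bax* (-0.95 ± 0.13), *Tnfrsf10b* (-0.90 ± 0.13) and *Apaf1* (-0.44 ± 0.09). The other 5 members were not called by edgeR, with estimates of -0.52 ± 0.28 for *Fas*, -1.08 ± 0.46 for *Perp*, -1.08 ± 0.38 for *Pmaip1*, -0.93 ± 0.25 for *Aen* and -0.82 ± 0.24 for *Pidd1*, and the groups of *Fas* and of *Pmaip1* overlapped. Between these *Pole4*+/+ genotypes the summed skeletal muscle markers separated as well, at 43.8 to 51.3 CPM in *Trp53*-/- against 59.2 to 80.7 in *Trp53*+/- libraries. Of the 6 muscle markers 0 were called, and their median log2 fold change was 1.17, opposite in direction to the sum. Their part was not tested. Because 0 of 3 *Trp53*-/- and 3 of 3 *Trp53*+/- libraries were male, sex and genotype cannot be told apart there. With 1 library left out, the estimate of *Fas* ran from -0.78 to -0.27, of *Aen* from -1.28 to -0.61 and of *Perp* from -1.58 to -0.85. That of *Pmaip1* ran from -1.62 to -0.73 and of *Pidd1* from -1.10 to -0.68. Of these 5 members only *Aen* was called in such fits, in 2 of 18. Leaving out any 1 of the 6 *Pole4*-/- libraries compared left 6 or 7 members called, with *Aen*, *Pmaip1*, *Fas* or *Perp* lost. Of the 8 other alternatives in *Pole4*-/- cells, *Aen* and *Pmaip1* were each called in 7 and the remaining members in all 8. In *Pole4*+/+ cells the count was 0 with library totals in place of TMM factors or with only the libraries compared, 1 with the level of *Xist* as a covariate and 3 to 5 with 1 library left out. With that covariate, which cannot separate sex from genotype here, *Bax* stood at -1.01 and was still called. The estimates of the 3 members that lost their call were -1.38 for *Bbc3*, -0.66 for *Tnfrsf10b* and -0.40 for *Apaf1*.

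The design also asks whether loss of POLE4 raises the apoptosis targets while TRP53 is present. Among the checks in *Trp53*+/+ cells, *Cdkn1a* ran from 342 to 363 CPM in *Pole4*-/- and from 232 to 251 in *Pole4*+/+ libraries. *Mdm2* ran from 149.5 to 159 against 123 to 147 CPM, while *Trp53* itself was lower, at 64.2 to 72.7 against 86.6 to 96.1. In *Trp53*+/+ cells 1 of 9 members was called higher in *Pole4*-/- than in *Pole4*+/+ MEFs, *Perp*, at 1.59 ± 0.41 (edgeR, adjusted p = 0.0426), against 1.29% of all genes. The summed fibroblast markers also separated these genotypes, at 16327 to 20351 CPM in *Pole4*-/- against 11757 to 15423 in *Pole4*+/+ libraries with 0 of 9 called by edgeR, 2 of 3 against 0 of 3 libraries were male, and the part of either was not tested. *Fas*, at 1.00 ± 0.27 (adjusted p = 0.0521), narrowly missed the threshold, and for both genes the 3 *Pole4*-/- libraries lay above the 3 *Pole4*+/+ libraries. *Tnfrsf10b* had an estimate of 0.31 ± 0.12 (adjusted p = 0.135). The BH3-only genes were at 0.26 (*Bbc3*, 95% interval -0.13 to 0.64) and 0.04 (*Pmaip1*, -0.75 to 0.83), and *Bax* and *Apaf1* at -0.09 (-0.35 to 0.18) and 0.04 (-0.15 to 0.23). The call of *Perp* was lost, giving 0 members, with library totals alone, with the *Xist* covariate (1.22, adjusted p = 0.2225), without any 1 of the 3 *Pole4*-/- *Trp53*+/+ libraries and without *Pole4*+/+ *Trp53*+/+ replicate 1 or 2; without replicate 3 of that genotype, or with no filter on low counts, *Fas* was called in its place. It was also lost without *Pole4*-/- *Trp53*-/- replicate 1 or 2 or any 1 *Pole4*+/+ *Trp53*+/- library. *Perp* and *Fas* were both called by DESeq2, by the fit with only the libraries compared and without *Pole4*+/+ *Trp53*-/- replicate 1 or 3, and voom called 5 members.

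With 1 or no *Trp53* allele the effect of *Pole4* on the members was not detectable by edgeR at this number of libraries. In *Trp53*+/- cells 0 of 9 members were called higher (0% of all genes), although all 9 estimates were above 0, from 0.01 to 0.89, and 2 had an unadjusted p under 0.05, *Tnfrsf10b* (0.47 ± 0.12, adjusted p = 0.422) and *Pmaip1* (0.89 ± 0.37, adjusted p = 0.865); DESeq2 called 0 and voom called these 2. Skeletal muscle markers separated the same genotypes, at 125.2 to 203 CPM in *Pole4*-/- against 59.2 to 80.7 in *Pole4*+/+ libraries, 1 of 3 against 3 of 3 libraries were male, and the part of either was not tested. In *Trp53*-/- cells 0 of 9 were called higher (0.00637% of all genes), with 6 estimates above 0 and 3 below, and *Apaf1*, at -0.23 ± 0.09, had an unadjusted p under 0.05 (edgeR, adjusted p = 0.457); DESeq2 and voom called 0. Here ribosomal RNA (24.7% to 30.0% against 1.82% to 13.1%), fibroblast markers (9862.5 to 12295 against 12627 to 16931 CPM) and skeletal muscle markers (53.4 to 68.9 against 43.8 to 51.3 CPM) separated *Pole4*-/- from *Pole4*+/+ libraries, and their part was not tested. *Perp* stood at 0.02 in these cells (95% interval -1.04 to 1.07) and *Fas* at 0.10 (-0.50 to 0.71).

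Whether the effect of *Trp53* loss differed between the *Pole4* backgrounds was tested directly. For the loss of both alleles 0 of 9 members were called, where 0.331% of all genes were, and 2 had an unadjusted p under 0.05: *Perp*, whose log2 fold change in *Pole4*-/- cells differed by -1.58 ± 0.63 from that in *Pole4*+/+ cells (edgeR, adjusted p = 0.125), and *Fas*, by -0.90 ± 0.39 (adjusted p = 0.153). DESeq2 and voom also called 0, and without *Pole4*+/+ *Trp53*-/- replicate 3 edgeR called *Fas* (-1.16, adjusted p = 0.0303). For the loss of 1 allele 0 of 9 were called by edgeR, DESeq2 and voom (0% of all genes), and 0 had an unadjusted p under 0.05. The larger change of *Perp* and *Fas* in *Pole4*-/- cells is therefore given as their values and is not shown to differ between backgrounds.

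The 9 genes were next read beside other genes of the cell death pathways, in lists drawn up by function with earlier results of these data known. The list most like the members was that of other TRP53 targets tied to cell death, of which 15 of 16 genes passed the filter: 10 fell and 0 rose in *Pole4*-/- *Trp53*-/- against *Trp53*+/+ cells, and 7 fell and 0 rose in *Pole4*+/+ cells, with medians of -1.04 and -0.59. Over all genes tested, 20.8% fell and 21.8% rose in *Pole4*-/-, and 2.37% fell and 2.23% rose in *Pole4*+/+ cells. *Eda2r*, a receptor of the TNF receptor family, fell by 6.90 in *Pole4*-/- and by 6.10 in *Pole4*+/+ cells, where it went from 42.2 to 61.2 CPM down to 0.272 to 1.12. *Trp53inp1*, a stress-induced partner of TRP53, fell by 5.34 and by 3.51. *Dapk1*, a death-associated kinase, fell by 2.81 in *Pole4*-/- and by 1.83 in *Pole4*+/+ cells, and *Zmat3*, which encodes an RNA-binding protein, fell by 2.18 and by 1.96. These drops of *Eda2r* and *Trp53inp1* were larger than that of any of the 9 members in the same background.

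Genes of the core machinery were called in both directions, at counts to be read against the shares of all genes just given. Of 14 tested BCL2 family genes outside the members, 3 fell and 4 rose in *Pole4*-/- *Trp53*-/- cells, and 2 fell and 0 rose in *Pole4*+/+ *Trp53*-/- cells (medians -0.40 and 0.01), which in *Pole4*-/- cells is near the 20.8% and 21.8% of all genes. The protective *Bcl2* rose by 1.24 ± 0.27 in *Pole4*-/- cells, as did *Bok*, a BAX relative, by 1.15 ± 0.30, while the BH3-only gene *Bad* fell by 0.67. The protective *Bcl2l1*, which encodes BCL-XL, fell by 0.39 in *Pole4*-/- and by 0.65 in *Pole4*+/+ cells, and its relative *Bcl2l2* fell by 0.67 and by 0.36. *Bak1*, which acts beside BAX, rose by 0.29 in *Pole4*-/- cells and stood at 0.02 in *Pole4*+/+ cells, where it was not called. The protective *Mcl1* stood at -0.09 and -0.07 and was called in neither.

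All 19 apoptosome and caspase genes were tested, and 5 fell and 6 rose in *Pole4*-/- *Trp53*-/- cells, against 0 and 1 in *Pole4*+/+ *Trp53*-/- cells (medians -0.0017 and 0.06), beside 20.8% lower and 21.8% higher over all genes in *Pole4*-/- and 2.37% and 2.23% in *Pole4*+/+ cells. *Birc5*, the inhibitor survivin whose level follows cell division, rose by 1.80 ± 0.24, *Casp2*, the caspase that the PIDD1 complex activates, by 0.96 ± 0.11 and *Cycs*, cytochrome c, by 0.89 ± 0.22, whereas *Casp12* fell by 0.93 and *Casp9*, the caspase of the apoptosome, by 0.45. *Casp2* also rose in *Pole4*+/+ *Trp53*-/- cells, by 0.61 ± 0.11, opposite in sign to *Pidd1*.

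Among death receptors, ligands and adaptors 11 of 15 genes were tested, of which 4 fell and 3 rose in *Pole4*-/- and 2 fell and 0 rose in *Pole4*+/+ *Trp53*-/- cells (medians -0.21 and -0.18), beside the same shares of all genes. *Tnfrsf11b*, a decoy receptor for TRAIL and RANKL, fell by 1.04 and by 1.00, and the decoy receptor *Tnfrsf23* by 0.76 and by 0.77. *Tnfrsf21* rose by 1.19 ± 0.36 in *Pole4*-/- cells, as did the adaptor *Fadd* by 0.41 and *Casp8* by 0.38. The ligands of the members' receptors were at or near 0: *Fasl* reached at most 2 counts in a library and *Tnfsf10*, which encodes TRAIL, at most 1. Of 9 partners and relatives of TRP53, *Zfp385a* fell by 1.15 and by 0.53, and *Trp53bp2* rose by 0.46 in *Pole4*-/- cells.

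**Figure D4:**
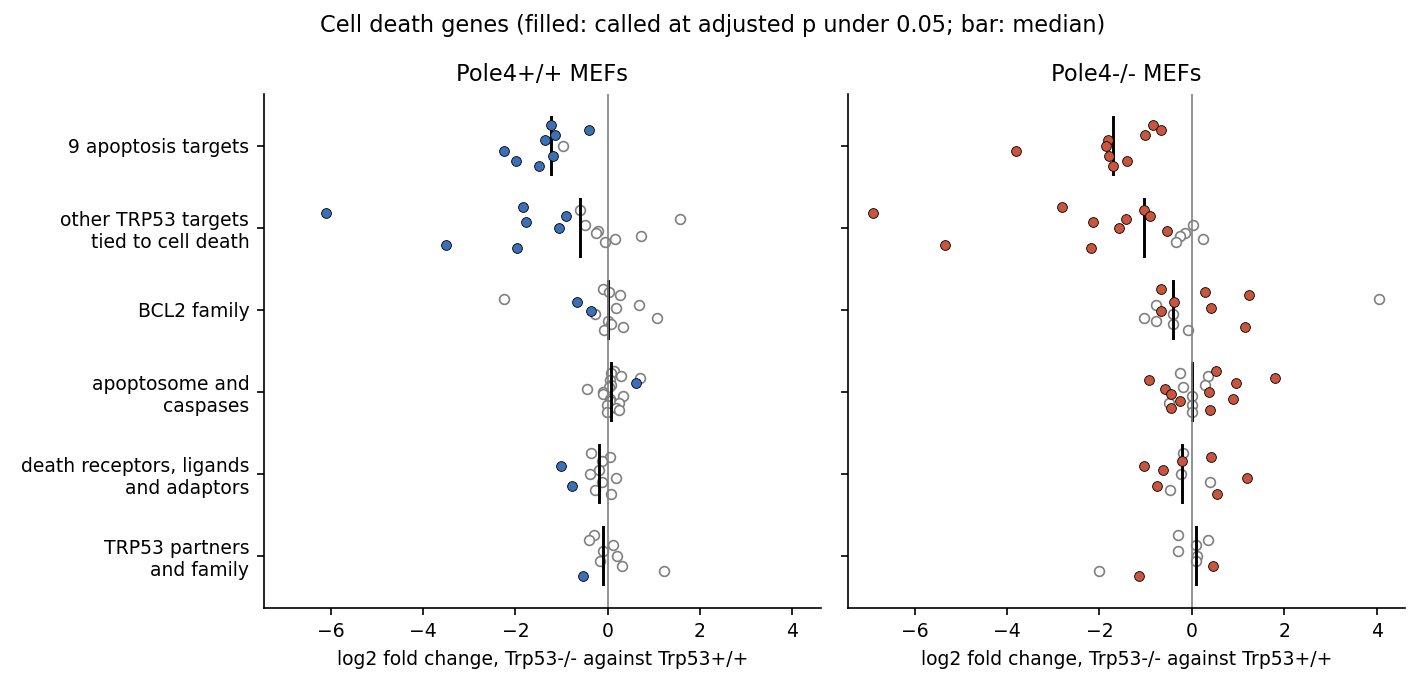
Log2 fold change of every tested gene of the 9 members and of the 5 other lists in *Trp53*-/- against *Trp53*+/+ cells, in *Pole4*+/+ (left) and *Pole4*-/- (right) MEFs; filled points were called at adjusted p under 0.05 and bars mark the list median. The members and the other TRP53 targets lie mostly below 0 (medians -1.23 and -0.59 on the left, -1.72 and -1.04 on the right), whereas the medians of the other lists lie between -0.40 and 0.08.

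Across the 18 libraries the levels of the members varied together, which is a description, since the libraries share 6 genotypes. Over their 36 pairs Pearson's r of log2 CPM ran from 0.49 (*Fas* and *Aen*) to 0.95 (*Tnfrsf10b* and *Pidd1*), with a median of 0.82. The pair of genes most like *Bax* in this measure were *Phlda3* and *Ei24* (r = 0.98 for each), and those most like *Bbc3* were *Dglucy* and *Inka2* (0.97 for each). For *Pmaip1* they were *Glipr1* (0.95) and *Prrg4* (0.94), for *Fas* *Gm20634* and *Fah* (0.96 for each) and for *Tnfrsf10b* *9230114K14Rik* and *Susd6* (0.98 for each). *Perp* was most like *Prnp* (0.97) and *Bcl2l2* (0.96), *Apaf1* like *Sulf2* and *Zfp385a* (0.96 for each), *Pidd1* like *Tnfrsf10b* (0.95) and *Gtf3c1* (0.94) and *Aen* like *Gtse1* (0.96) and *Ddias* (0.93). *Phlda3*, *Ei24*, *Zfp385a* and *Bcl2l2* stand on the lists described above, and 1 member, *Tnfrsf10b*, was among the genes most like another.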

How the data were processed

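RNA from 18 MEF libraries, 3 for each of 6 genotypes by GEO's labels, had been sequenced after an amplifying cDNA kit that does not mark strand. The authors trimmed the reads, aligned them with STAR 2.5.2 to GRCm38 and deposited RSEM 1.3.0 expected counts per gene, of which 6.14% are not whole; the kit can change how much of each gene is recovered. Here the counts were rounded, filtered with filterByExpr (15710 genes) and tested with edgeR 4.0.16 in R 4.3.3: TMM factors, a model that gives each genotype its mean (all libraries fitted together; residual degrees of freedom, 12) and Benjamini-Hochberg adjustment over all genes, with calls at 0.05. Levels are TMM-scaled CPM, and log2 levels use a prior count of 2. The members and lists were chosen with earlier results of these data known. Named genes are the 9 members, fixed checks and partners, and for each list the 3 called genes with the largest change in each *Trp53*-/- comparison; likeness names 2 genes a member. Alternatives were DESeq2 1.42.0, voom (limma 3.58.1), DESeq2's size factors, library totals alone, no filter, fewer libraries, a replicate block, an *Xist* covariate and leaving out each library. The edgeR steps were run on simulated counts with the same spread for every gene and few genes changed, only in *Pole4*-/- *Trp53*-/- libraries. That setting is simpler than these data. Positions are from GENCODE on GRCm38 and promoters from RefSeq on GRCm38.p6.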

Additional observations from a re-analysis of the deposited data

How the results depend on the processing

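The counts of members called in *Trp53*-/- against *Trp53*+/+ cells were 9 of 9 in *Pole4*-/- cells and with both backgrounds averaged under all 26 alternatives, and 6 to 9 in *Pole4*+/+ cells with 1 library left out. Fits with only the libraries compared gave 3 for *Trp53*-/- against *Trp53*+/+ in *Pole4*+/+, 2 for *Trp53*+/- in *Pole4*-/-, 0 for *Trp53*-/- against *Trp53*+/- in *Pole4*+/+ and 2 for *Pole4*-/- in *Trp53*+/+ cells. Library totals alone gave 0 for *Trp53*+/- in *Pole4*+/+, 1 for *Trp53*+/- over both backgrounds, 0 for *Trp53*-/- against *Trp53*+/- in *Pole4*+/+ and 0 for *Pole4*-/- in *Trp53*+/+ cells; they shifted the median of all genes by -0.44 to 0.31 and turned the sign of *Bax* (0.069), *Bbc3* (0.025) and *Aen* (0.0136) in the averaged *Trp53*+/- comparison and of *Tnfrsf10b* in the *Pole4* comparison in *Trp53*+/+ cells (-0.015). DESeq2 gave 3 for *Trp53*+/- in *Pole4*-/- and 2 for *Pole4*-/- in *Trp53*+/+ cells. Voom gave 3 and 2 for *Trp53*+/- in *Pole4*-/- and *Pole4*+/+ cells, and 5 and 2 for *Pole4*-/- in *Trp53*+/+ and *Trp53*+/- cells. The *Xist* covariate gave 0 for *Trp53*+/- in *Pole4*-/-, 1 for *Trp53*-/- against *Trp53*+/- in *Pole4*+/+ and 0 for *Pole4*-/- in *Trp53*+/+ cells, while the estimates that lost their call kept their sign (*Perp* at -1.73 and 1.22 in the first and last, *Bbc3* at -1.38, *Tnfrsf10b* at -0.66 and *Apaf1* at -0.40 in the second). In the *Pole4*+/+ comparisons with *Trp53*+/- cells the *Xist* covariate cannot separate sex from genotype. The cause of these shifts was not tested. With 1 library left out the counts ran from 0 to 3 (*Trp53*+/- in *Pole4*-/-), 0 to 1 (*Trp53*+/- in *Pole4*+/+), 2 to 3 (*Trp53*+/-, averaged), 6 to 9 and 3 to 5 (*Trp53*-/- against *Trp53*+/- in *Pole4*-/- and *Pole4*+/+), 0 to 2 (*Pole4*-/- in *Trp53*+/+) and 0 to 1 (difference of the *Trp53*-/- effects), and were 0 for the *Pole4* comparisons in *Trp53*+/- and *Trp53*-/- cells and for the difference of the *Trp53*+/- effects; *Apaf1* in the averaged *Trp53*+/- comparison ran from -0.0095 to 0.059 over these fits and was below 0 in 3 of them. Replicate numbers are shared between genotypes, and of 45 same-numbered pairs 22 had deviations correlated above 0.1 (r from -0.259 to 0.586, median 0.098, against -0.06 for other numbers). Same-numbered libraries thus deviated together more than others did at the median, but the main fit did not take them as pairs. The replicate block gave 2 members for *Trp53*+/- in *Pole4*-/- cells, exchanged *Fas* for *Pidd1* in the averaged *Trp53*+/- comparison and added *Pidd1* for *Trp53*-/- against *Trp53*+/- in *Pole4*+/+ cells. *Perp* in *Trp53*-/- libraries rests on 10 to 51 counts, which limits its fold change.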
